A study of Mus musculus with 32 samples.

Results

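The GABA and glutamate receptor subunits are 47 protein-coding genes, chosen by symbol from the 55401 gene rows of an RNA-seq table. They comprise 19 GABA-A subunits, 2 GABA-B subunits, 4 AMPA, 5 kainate, 7 NMDA and 2 delta ionotropic glutamate receptor subunits, and 8 metabotropic glutamate (mGlu) receptors. The rule reads symbols only and no measured value. Bulk RNA-seq libraries were made from whole hypothalami, 1 per mouse, of C57BL/6NTac males in 4 groups formed by genotype and diet. Gpr101 is an orphan G protein-coupled receptor gene on the X chromosome, so a male with the knockout allele is hemizygous and carries no other copy. The labels name no Cre or promoter, so the allele is described here only as Gpr101 ko. Its controls were wild-type littermates.

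The control-diet groups held 7 wild-type mice (WT_CD, 6 of them 149 days old and 1 of 150 days) and 8 knockout mice (KO_CD, 5 of 149 days and 3 of 150 days). The high-fat groups held 8 wild-type mice (WT_HFD, 1 of 149 days and 7 of 150 days) and 9 knockout mice (KO_HFD, 1 of 149 days and 8 of 150 days). The high-fat diet took 60% of its energy from fat and was given from 7 weeks of age until the mice were killed, whereas all mice had eaten standard chow before. Age therefore differed by at most 1 day but followed diet.

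GABA is the main inhibitory transmitter of the hypothalamus and glutamate the main excitatory one. GABA-A receptors are chloride channels assembled from alpha, beta and usually gamma subunits, while GABA-B receptors act through G proteins. AMPA, kainate and NMDA receptors are cation channels opened by glutamate, and mGlu receptors act through G proteins. In the hypothalamus both systems regulate the neurons that control feeding, hormone release and body temperature, and the subunit mixture sets a receptor's kinetics and drug sensitivity.

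Of the 47 genes, 42 reached the level needed for testing, and 0 of the 42 differed between genotypes or diets at an adjusted p below 0.05. Their levels spanned a wide range. Gabbr1, which encodes the GABA-binding subunit of the GABA-B receptor, was the most abundant at 95.6 reads per kilobase of exon per 1e6 reads on genes, a level corrected for transcript length and called level per length below. The retinal mGlu receptor gene Grm6 was the lowest, at 0.0016 on that scale.

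The promoters of 5 members are shown because they include both ends of that range and the window richest in G and C. RefSeq start sites on GRCm38.p6 were held for 32 of the 47 genes, with 39 windows of the 250 bases before a start. No window was held for 15 members, among them Gabrd, Gria1, Gria3, Grid1, Grik1, Grin2a, Grin2b, Grin3a, Grm4 and Grm5. The sequences below run 5′ to 3′ on the gene's own strand, hold no annotated exon base, and have each CG dinucleotide in capitals. Gabbr1 (chr17:37045716-37045965, plus strand) was the most abundant member. Gabra3 (chrX:72656920-72657169, minus strand) was an abundant member without a CG, and Grik3 (chr4:125490446-125490695, plus strand) had the most G and C. Gabra6 (chr11:42321073-42321322, minus strand) and Grm6 (chr11:50850435-50850684, plus strand) were close to undetected.
Gabbr1: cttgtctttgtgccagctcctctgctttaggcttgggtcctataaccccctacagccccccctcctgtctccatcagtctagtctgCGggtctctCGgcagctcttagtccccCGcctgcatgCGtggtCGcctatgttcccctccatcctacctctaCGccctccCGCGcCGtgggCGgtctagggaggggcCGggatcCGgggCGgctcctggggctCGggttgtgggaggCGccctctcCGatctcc
Gabra3: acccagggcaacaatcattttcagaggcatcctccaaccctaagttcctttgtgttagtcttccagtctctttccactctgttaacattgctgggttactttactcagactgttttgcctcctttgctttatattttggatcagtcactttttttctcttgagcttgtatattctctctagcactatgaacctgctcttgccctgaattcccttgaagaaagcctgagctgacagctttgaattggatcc
Grik3: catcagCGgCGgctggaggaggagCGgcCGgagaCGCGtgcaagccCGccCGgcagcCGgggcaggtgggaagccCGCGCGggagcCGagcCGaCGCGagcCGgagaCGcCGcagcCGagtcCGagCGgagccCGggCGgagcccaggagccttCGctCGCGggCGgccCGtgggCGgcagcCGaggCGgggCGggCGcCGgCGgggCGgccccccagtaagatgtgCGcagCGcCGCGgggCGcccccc
Gabra6: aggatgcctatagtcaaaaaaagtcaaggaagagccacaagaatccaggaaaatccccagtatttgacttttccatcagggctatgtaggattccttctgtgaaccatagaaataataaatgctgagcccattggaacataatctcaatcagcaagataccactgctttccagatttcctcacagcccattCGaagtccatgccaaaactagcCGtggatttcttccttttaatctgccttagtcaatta
Grm6: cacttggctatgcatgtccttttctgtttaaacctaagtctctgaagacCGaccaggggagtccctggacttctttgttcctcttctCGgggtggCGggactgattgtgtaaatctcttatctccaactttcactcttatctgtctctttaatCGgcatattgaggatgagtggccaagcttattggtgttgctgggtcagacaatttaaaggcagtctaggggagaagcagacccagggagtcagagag

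G and C made up 66% of the Gabbr1 window, which held 16 CG dinucleotides. The Grik3 window was 82% G and C with 42 CG, the Gabra3 window 42.4% with 0, the Gabra6 window 40.8% with 2 and the Grm6 window 47.6% with 4. A lower bound of 0.5 on the level per length, set after the values were seen, separated 7 members that had a window from 25 others. Windows of the 7 low members held 40.8% to 49.2% G and C and 1 to 7 CG. The 32 windows of the other members held 35.6% to 82%, with a median of 62.2%, and 0 to 42 CG with a median of 10.5. Across all 32851 windows in the RefSeq table, the medians were 52.4% and 6 CG. The low members thus lay in the lower part of the range, but Gabra3 and Gabrg1 (35.6%, 1 CG) were as poor in G and C at levels of 34.9 and 13.2. The motif TATAAA, searched on both strands, was in 4 member windows (10.3%) against 12.4% of all windows. TGACG, the core of a cAMP response element, was in 3 (7.69%) against 17.8%, and the full element TGACGTCA, which contains that core, was in 0 against 1.55%. These matches are a description of the letters in these windows.

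**Figure D1:**
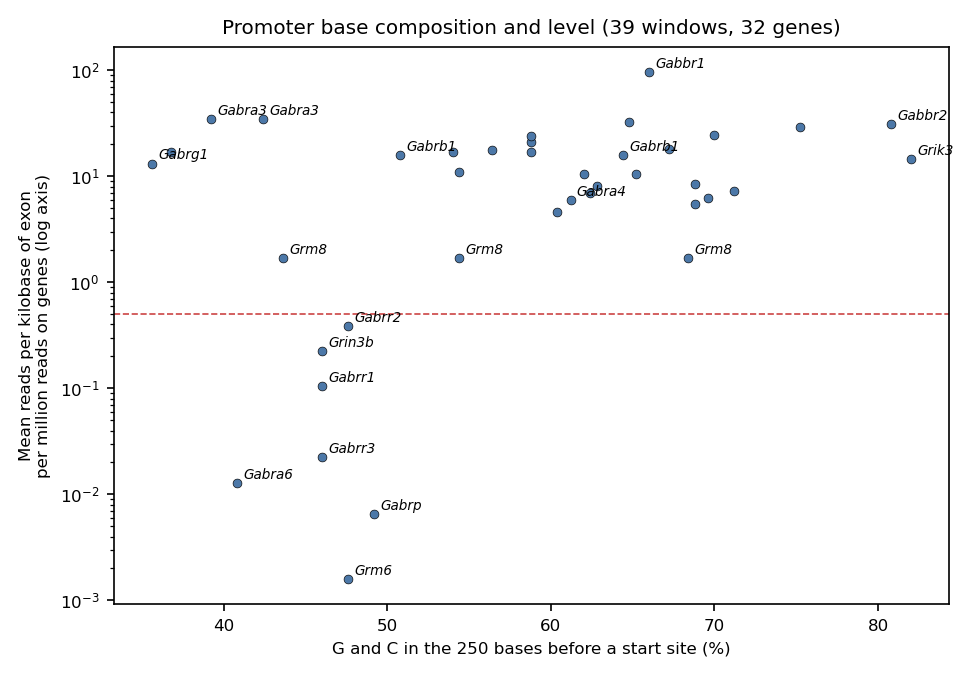
Each point is 1 of the 39 promoter windows, with the percentage of G and C in the 250 bases before the start site on the x axis and the gene's mean level per length over 32 libraries on a log y axis; the dashed line is at 0.5. The 7 low members lie between 40.8% and 49.2%, while the others spread from 35.6% to 82%.

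The RNA came from whole dissected hypothalamus, so fewer cells of a type and less RNA per cell cannot be told apart. Libraries held 25.3 to 34.2 M reads on genes (median 27.7 M, with M for 1e6), and any pair of libraries correlated across genes with an r of at least 0.9883. Gpr101 had 2605 to 3145 reads in WT_CD, 2471 to 3472 in WT_HFD, 0 in each KO_CD library and 0 to 1 in KO_HFD, as the labels say. The summed normalized counts of 17 hypothalamic markers were 35160 to 46392, against 744 to 1056 for 9 markers of cortex, hippocampus and amygdala. Sums were 3095 to 3731 for 7 striatal markers and 4124 to 5579 for 8 markers of cerebellum and hindbrain. A list of 11 thalamic markers summed to 9763 to 13966. That sum was mostly Calb2 (6232 to 9017) and Rora (1443 to 2202), which are not confined to the thalamus. Among the rest, Plekhg1 ran from 554 to 993, Tcf7l2 from 379 to 1165 and Prkcd from 260 to 930. Gbx2, the lowest by median, ran from 1.98 to 52.2. Mice are separate animals, as the labels number them as biological replicates.

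Alpha subunits of the GABA-A receptor help form the GABA site and determine whether benzodiazepines act. Gabra3, often found in monoaminergic nuclei, had a level per length of 34.9 (lowest library 32.7, highest 39.2). Gabra2, an alpha gene of benzodiazepine-sensitive receptors, was at 24.7 (22.6 to 26.9), and Gabra5, known from receptors outside synapses in the hippocampus, at 17.7 (16.2 to 19.4). Gabra4 was lower, at 5.93 (5.28 to 7.62). The ranges over libraries of these 4 genes did not overlap. Gabra6, known from cerebellar granule cells, had 28 reads in all 32 libraries together and 0 reads in 20 of them.

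Normalized counts are reads divided by the library's size factor. Gabra4, which pairs with the delta subunit in receptors outside synapses, was among the 5 most variable members within groups. It ranged from 916 to 1135 in WT_CD (median 957), from 905 to 1294 in KO_CD (1046), from 900.2 to 1125 in WT_HFD (944) and from 912 to 1105 in KO_HFD (1051). The highest value, 1294, was in KO_CD replicate 1.

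Beta subunits complete the GABA site. Gabrb2 and Gabrb1 were close to each other, at levels per length of 16.9 (13.8 to 19.1 over libraries) and 15.9 (13.4 to 17.4), with overlapping ranges. Gamma subunits are needed for clustering at synapses and for benzodiazepine binding. Among them Gabrg1, also known from glia, was at 13.2 (11.98 to 14.6) and Gabrg3 at 4.59 (4.24 to 5.02).

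Gabrq (theta) and Gabre (epsilon), subunits with a restricted distribution that includes the hypothalamus, were at levels per length of 18.2 and 8.52. Gabrq ran from 2565 to 3075 normalized counts in WT_CD (median 2771), 2591 to 2723 in KO_CD (2681), 2561 to 3013 in WT_HFD (2642) and 2278 to 3106 in KO_HFD (2786). KO_CD lay inside the range of each of the other groups. Gabre was the most variable member within groups among those with a mean of at least 100 normalized counts, with a standard deviation (SD) of 0.14 on the log2 scale. It ran from 1030 to 1335 in WT_CD (median 1130), 991 to 1201 in KO_CD (1102), 971 to 1286 in WT_HFD (1093) and 952 to 1332 in KO_HFD (1125).

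The other GABA-A members were scarce. Gabrd, the delta subunit of receptors that carry tonic current, had a level per length of 0.493 with 15 to 119 reads per library. Gabrr2 (0.384) and Gabrr1 (0.104) encode rho subunits best known from the retina, and Gabrr3, another rho gene, was at 0.0225. Gabrp, a pi subunit found mainly outside the brain, was at 0.0065 with 20 reads in all. The 5 members that did not reach the level for testing were Gabrr1 (1 to 14 reads per library), Gabrr3 (0 to 8), Gabra6 (0 to 9), Gabrp (0 to 3) and Grm6 (0 to 1). A library with 0 reads allows up to 3, so these values do not show absence, and no fold is given for them.

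Gabrd was the only tested member with an SD within groups above 0.5 on the log2 scale, at 0.64, against 0.23 from counting alone. It had 20.9 to 64.1 normalized counts in WT_CD (median 38.6), 20.9 to 120.1 in KO_CD (34.8), 14.9 to 72.3 in WT_HFD (38.0) and 21.5 to 68.6 in KO_HFD (29.4). The 3 highest libraries were KO_CD replicate 1 (120.1), WT_HFD replicate 6 (72.3) and KO_HFD replicate 8 (68.6). By the summed level of the 11 thalamic markers, mostly Calb2 and Rora, they ranked 2, 1 and 3 of 32, at 13930, 13966 and 13057. The next libraries by Gabrd were WT_CD replicate 3 (64.1), WT_HFD replicate 5 (61.4) and WT_HFD replicate 4 (55.6). They ranked 12, 4 and 20 by the thalamic sum. WT_HFD replicate 6 had the highest hypothalamic sum too, at 46392, and ranked 29 by the choroid plexus sum. KO_CD replicate 1 also had the highest sum of 8 cerebellar and hindbrain markers (5579, others from 4124 to 5336), the highest choroid plexus sum (1289) and 9 reads of Gabra6. The part of neighbouring tissue in the Gabrd values was not tested.

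Neighbours in the genome often differed in level. On GRCm38, Gabra6 and Gabrb2 lie side by side on chromosome 11 (from 42306437 to 42629028), at levels per length of 0.0128 and 16.9. On chromosome 5 (from 70751047 to 72149037) Gabrg1, Gabra2, Gabra4 and Gabrb1 were at 13.2, 24.7, 5.93 and 15.9. Gabra4 and Gabrb1 there are read in opposite directions and share 46 exon bases at their starts. On chromosome 7 (from 56716465 to 57510059), Gabrg3 and Gabra5 were at 4.59 and 17.7. The X chromosome, which also carries Gpr101, holds Gabre, Gabra3 and Gabrq in a row (from 72255999 to 72842602) at 8.52, 34.9 and 18.2, and Gria3 elsewhere. Gabrr2 and Gabrr1 on chromosome 4 (from 33062999 to 33163588) were low together, at 0.384 and 0.104.

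GABA-B receptors need both their subunits, Gabbr1 to bind GABA and Gabbr2 to reach the cell surface and couple to G proteins. The level per length of Gabbr1 (95.6) exceeded that of 98.6% of protein-coding genes, and that of Gabbr2 was 31.1. Gabbr1 ran from 20503 to 21595 normalized counts in WT_CD (median 20813) and from 20647 to 21375 in KO_CD (21056). It ran from 19877 to 21204 in WT_HFD (20479) and from 19586 to 21094 in KO_HFD (20673). This was the steadiest member, with an SD within groups of 0.03 on the log2 scale.

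**Figure D2:**
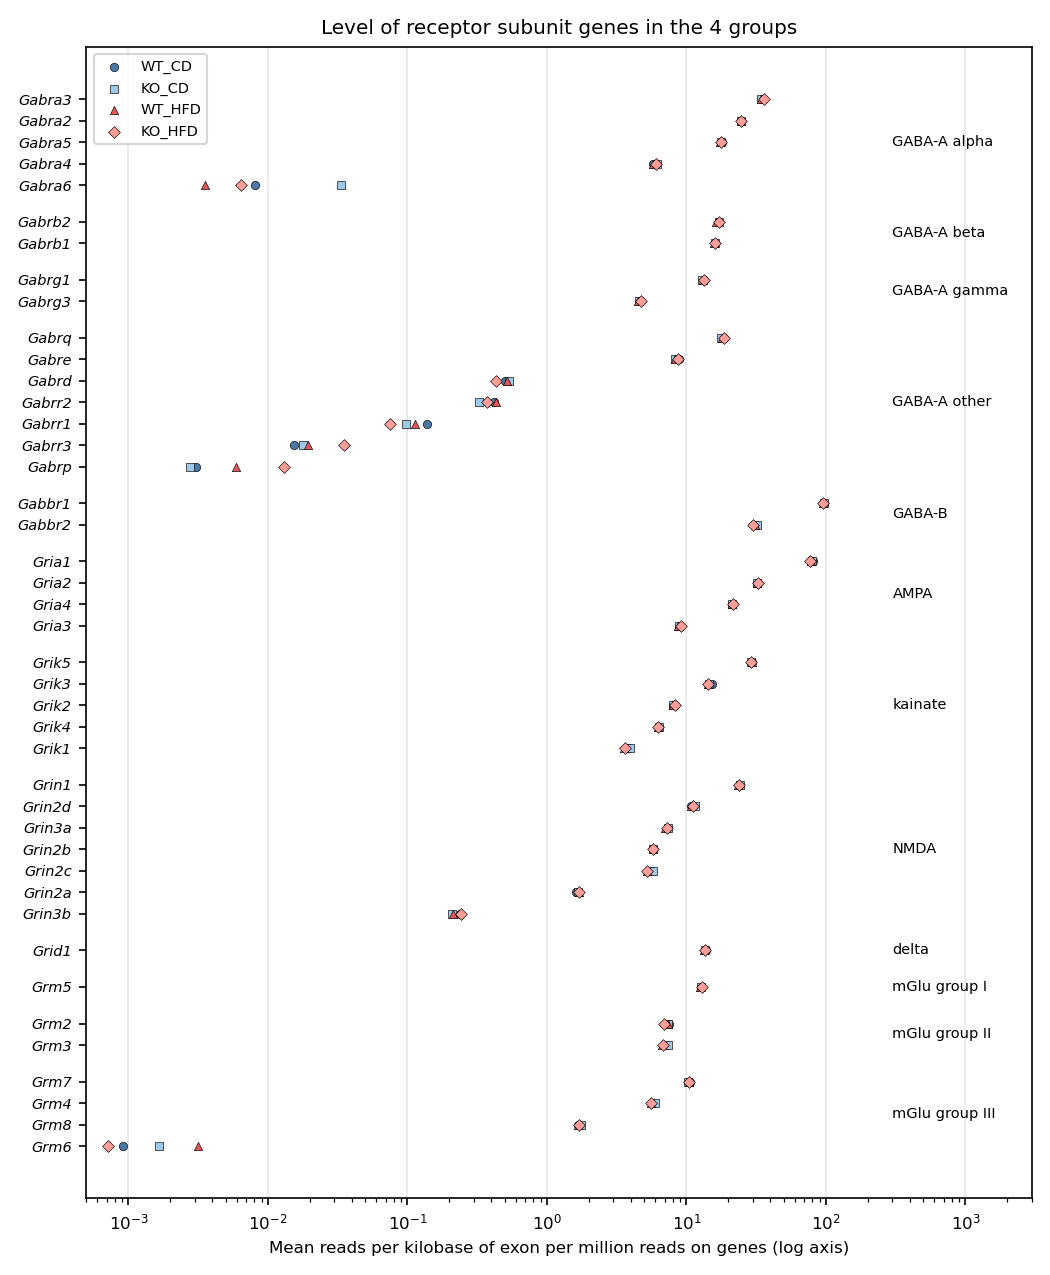
Each row is a gene, grouped by receptor family, and each symbol is a group mean of the level per length (reads per kilobase of exon per 1e6 reads on genes, log axis) over 7 to 9 libraries. Symbols of the 4 groups coincide for most genes, from Gabbr1 at 95.6 down to about 1, and spread apart for the genes under 1, which rest on few reads.

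Among AMPA receptors, Gria1 led at a level per length of 78.7 (55.7% of the AMPA sum). Gria2, whose edited form makes the channel nearly impermeable to calcium, was at 32.4 (22.9%), Gria4 at 21.3 (15.1%) and Gria3 at 8.92 (6.32%). With the longest transcript as the length, the Gria1 share was 48.8% and that of Gria2 27.6%. Gria1 ran from 13163 to 14315 normalized counts in WT_CD (median 13694) and from 13229 to 13689 in KO_CD (13382). It ran from 12291 to 13767 in WT_HFD (13158) and from 12437 to 13729 in KO_HFD (13051). The medians of both high-fat groups lay below those of both control-diet groups, with overlapping ranges.

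Kainate receptors are built from Grik1, Grik2 or Grik3, to which Grik4 or Grik5 is added as a high-affinity partner. The partner Grik5 was the most abundant at a level per length of 29.3 (47.3% of the kainate sum). Grik3 followed at 14.5 (23.4%), Grik2 at 8.08 (13.1%), Grik4 at 6.29 (10.2%) and Grik1 at 3.74 (6.05%). Grik5 ran from 3943 to 4606 normalized counts in WT_CD (median 4231), 4020 to 4543 in KO_CD (4268), 4067 to 4447 in WT_HFD (4278) and 3753 to 4455 in KO_HFD (4290). The ranges of all groups overlapped.

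NMDA receptors require Grin1, the glycine-binding subunit, and commonly contain glutamate-binding GluN2 subunits encoded by Grin2a to Grin2d. Grin1 was at a level per length of 23.7, although 13.5% of its exon bases are shared with the antisense gene Grin1os. Of the GluN2 sum, Grin2d gave 46.2% (11.1), Grin2b 24.1% (5.77), Grin2c 22.7% (5.45) and Grin2a 6.99% (1.67). By level per length Grin2a, prominent in adult forebrain, was thus the least abundant here, and Grin2d, known from the diencephalon and brainstem, the most. The place of Grin2d rests on the correction for length: mean normalized counts were 2067 over 6658 exon bases, against 4011 over 24842 for Grin2b. Of the Grin2d exon bases 9.66% are shared with the antisense gene Gm45441. Grin3a, a glycine-binding subunit that lowers calcium permeability, was at 7.25. Its relative Grin3b was at 0.225, and 32.1% of its exon bases are shared with Tmem259 on the opposite strand. Grin1 ran from 6197 to 6929 normalized counts in WT_CD (median 6290), 6353 to 6853 in KO_CD (6582), 6042 to 6924 in WT_HFD (6305) and 6159 to 6705 in KO_HFD (6424).

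The delta receptors organise synapses by binding cerebellins. Grid1 was at a level per length of 13.6. Grid1 ran from 2208 to 2452 normalized counts in WT_CD (median 2326), 2174 to 2408 in KO_CD (2281), 2127 to 2381 in WT_HFD (2214) and 2180 to 2318 in KO_HFD (2234).

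Of the mGlu receptors, those of group I excite cells through Gq, and groups II and III inhibit adenylyl cyclase, often on nerve terminals. Grm5 of group I was at a level per length of 12.7. In group III, Grm7 was at 10.5, Grm4 at 5.71 and Grm8 at 1.70, while Grm6, which serves retinal ON bipolar cells, had 8 reads in all libraries together. Group II comprised Grm2 at 7.26 and Grm3, also an astrocyte gene, at 6.98, with overlapping ranges over libraries (6.18 to 8.60 and 5.67 to 8.36).

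Grm5 had 3535 to 3851 normalized counts in WT_CD (median 3624), 3560 to 3823 in KO_CD (3649), 3439 to 3728 in WT_HFD (3558) and 3539 to 3876 in KO_HFD (3698). Grm7 had 1619 to 1852, 1648 to 1768, 1627 to 1816 and 1667 to 1791 in the same order of groups. Both were steady, with an SD within groups of 0.04 and 0.05 on the log2 scale. Grm2 and Grm3 varied more (0.13 and 0.12). Grm2 had 923 to 1172 in WT_CD (median 990.1), 941 to 1123 in KO_CD (993), 895 to 1164 in WT_HFD (1001) and 837 to 1050 in KO_HFD (908). Grm3 had 532 to 719 in WT_CD (609), 581 to 699 in KO_CD (620), 537 to 630 in WT_HFD (565) and 481 to 639 in KO_HFD (560.3).

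Summed levels per length describe a family as a whole. The 4 AMPA genes summed to 144 ± 3.4 (SD, n = 7) in WT_CD, 141 ± 1.6 (n = 8) in KO_CD, 139.7 ± 4.3 (n = 8) in WT_HFD and 140.7 ± 2.7 (n = 9) in KO_HFD. The 5 kainate genes summed to 62.8 ± 2.5, 61.96 ± 1.05, 61.5 ± 2.1 and 61.5 ± 1.9 in the same order. The 4 GluN2 genes summed to 23.8 ± 1.09, 24.8 ± 0.669, 23.5 ± 1.6 and 23.9 ± 1.1. No test was run on these sums.

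Other glutamate receptor genes are given by their range over the 32 libraries. The level per length ran from 29.6 to 34.5 for Gria2, 19.9 to 23.2 for Gria4, 8.36 to 9.49 for Gria3, 7.29 to 8.99 for Grik2 and 5.49 to 6.98 for Grik4. It ran from 5.24 to 6.44 for Grin2b, 4.99 to 6.35 for Grm4 and 1.48 to 2.00 for Grm8. The highest library was thus less than 1.5 times the lowest for each of these genes. Grin3b spread from 0.124 to 0.326, with 11 to 32 reads per library.

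**Figure D3:**
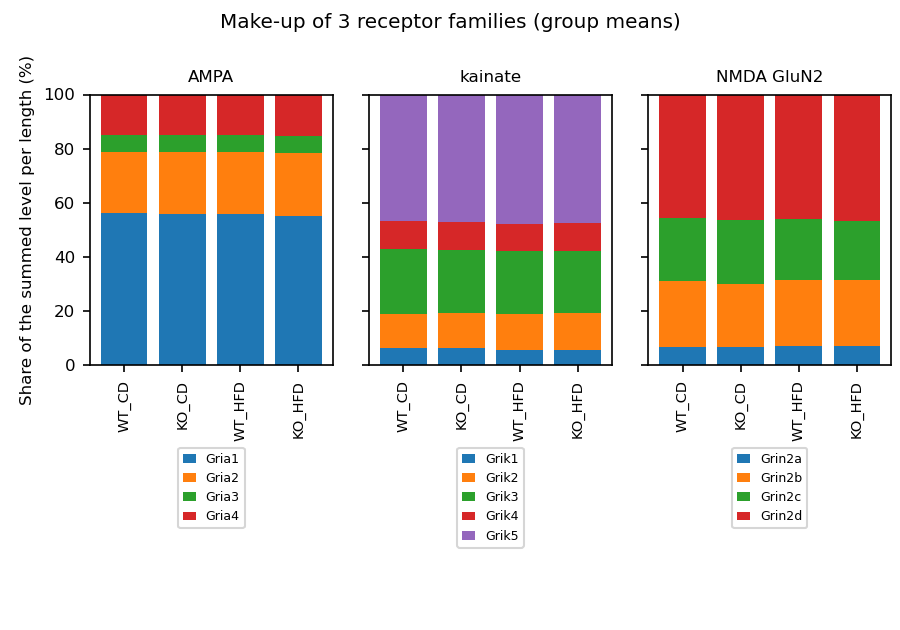
Stacked bars show the percentage of a family's summed level per length given by each member, as the mean of each group of 7 to 9 libraries, for AMPA, kainate and GluN2 genes. The 4 bars of a family look alike, with Gria1, Grik5 and Grin2d as the widest segments at 55.7%, 47.3% and 46.2% over all libraries.

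With the longest transcript as the length, several levels moved by over 1.5 times. Among these were Grin1 (53.8), Gabrb2 (26.9), Gabrg1 (21.8), Gria3 (16.9), Grin3a (11.9), Grik1 (6.87) and Grm8 (3.50). Comparisons between genes therefore depend on the choice of length, by more than that factor for the genes listed (Grin1 moved from 23.7 to 53.8). Comparisons of 1 gene between groups do not depend on the length.

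The first comparison asked whether loss of Gpr101 changed receptor subunits on the control diet. Of 42 members, 0 were called and 0 reached an unadjusted p below 0.05 (limma), beside 1 of 19928 genes called (0.00502%) and 821 at an unadjusted p below 0.05. In limma-voom 0 members were called. As many members lay above 0 as below (21 each), and their median log2 fold change was 0.00. Grin2d, at 1967 to 2264 normalized counts in KO_CD (median 2167) and 1849 to 2210 in WT_CD (2033), had a log2 fold change of 0.09 (standard error, SE, 0.05). Gabra4 differed by 0.09 (SE 0.06), Grik3 by -0.06 (SE 0.04) and the scarce Gabrr2 by -0.33 (SE 0.21). Each had an adjusted p of 1.00 in limma.

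In the mice on the high-fat diet, 0 of 42 members were called for genotype (0.00502% of all genes called, 1 of 19928). An unadjusted p below 0.05 was reached by 5 members, all higher in the knockout, among them Gabra3, Gabrg3, Gria3 and Grm5. Over all genes 1026 reached it, and in limma-voom 4 members did and 0 were called. Gabra3 had 3776 to 4249 normalized counts in KO_HFD (median 3972) and 3578 to 3969 in WT_HFD (3739), overlapping ranges in which the median of the knockout lay above the highest wild-type library. Its log2 fold change was 0.08 (SE 0.02, unadjusted p = 0.00138, adjusted p = 0.948 in limma). Grm5 differed by 0.05 (SE 0.02), Grm2 by -0.11 (SE 0.06) and Gabrr2 by -0.29 (SE 0.19), with the same adjusted p of 0.948. In all, 31 of 42 members lay above 0, with a median of 0.02, against 48.5% of all genes. In the same comparison 7 of 9 microglial markers lay below 0 (median -0.08, 4 at an unadjusted p below 0.05), as did 9 of 10 astrocyte markers (median -0.04, 3 at that p) and 7 of 8 markers of ependyma and tanycytes (median -0.10, 2 at that p), with 0 called in each list. Among 11 neuronal markers 7 lay above 0 (median 0.02, 1 at that p, 0 called). Of 17 hypothalamic markers 4 lay above 0 (median -0.06, 1 lower at that p). So did 4 of 10 oligodendrocyte (median -0.01), 1 of 7 endothelial (-0.05), 0 of 7 meningeal (-0.18) and 0 of 5 blood markers (-0.05), with 0 called in each list. The part of tissue make-up in the receptor values was not tested.

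Averaged over both diets, genotype again gave 0 called members of 42 (0.00502% of all genes called), 4 at an unadjusted p below 0.05 beside 1140 of all genes, and 0 called in limma-voom. Of these 4, 3 were higher in the knockout, Gabra4 and Grin2d among them, and Gabrr2 was lower. Grin2d differed by 0.07 (SE 0.03, adjusted p = 0.866 in limma). Grm2 differed by -0.06 (SE 0.04, adjusted p = 0.894). Gabrr2, with 9 to 37 reads per library, differed by -0.31 (SE 0.14, adjusted p = 0.866). Its normalized counts were 12.5 to 25.7 in KO_CD (median 19.03) against 16.3 to 36.2 in WT_CD (23.8), and 9.34 to 32.8 in KO_HFD (22.4) against 20.2 to 30.2 in WT_HFD (25.7). Those ranges overlapped on both diets. In all, 28 of 42 members lay above 0, against 48.3% of all genes. All 7 NMDA genes were among the 28 (median 0.03), none past the test, as were all tested genes of some other families. Within each diet 6 of 7 NMDA genes lay above 0.

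The effect of the high-fat diet was looked at first in wild-type mice. Here 0 of 42 members were called, beside 5 of 19928 genes (0.0251%), and 6 members reached an unadjusted p below 0.05, all lower, among them Gria1, Grik1, Grik3 and Grin3a. Over all genes 1473 reached it, and in limma-voom 7 members did and 0 were called. Fold changes of 40 of 42 members lay below 0, with a median of -0.03, whereas 49.9% of all genes lay above 0. All tested AMPA, kainate, GABA-B, delta and mGlu genes were among those 40, as were all tested alpha, beta and gamma genes of the GABA-A receptor. The 2 above 0 were Grin2a (0.05, SE 0.05, adjusted p = 0.847 in limma) and Gabrr2 (0.09, SE 0.21, adjusted p = 0.955). This comparison shares the WT_HFD libraries with that of genotype on the high-fat diet, so their counts of direction are not independent. The 42 members are read in the same libraries and are not separate replicates.

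Gria1 was among the members with the smallest p in this comparison. Its normalized counts, given above, were 12291 to 13767 in WT_HFD (median 13158) and 13163 to 14315 in WT_CD (13694), overlapping ranges with the high-fat median just below the lowest control library. It differed by -0.06 (SE 0.02, adjusted p = 0.556 in limma). When libraries were scaled by total reads on genes, 5 rather than 2 members lay above 0.

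In knockout mice the diet gave 0 called members of 42, beside 7 of 19928 genes (0.0351%). Below an unadjusted p of 0.05 were 6 members, Gabra3 higher and Gabbr2, Grik1, Grin2c, Grm3 and Grm4 lower, beside 1402 of all genes, and limma-voom had 6 such members and called 0. Gabbr2 ran from 5289 to 6054 normalized counts in KO_HFD (median 5646) and 5623 to 6171 in KO_CD (6042), and differed by -0.09 (SE 0.03, adjusted p = 0.418 in limma). Grin2c ran from 658 to 831 in KO_HFD (720.5) and 774 to 884 in KO_CD (819), and differed by -0.16 (SE 0.05, adjusted p = 0.418). In both genes the high-fat median lay near or below the lowest control library, and the ranges overlapped. Gabra3 differed by 0.07 (SE 0.02, adjusted p = 0.535) and Gabrg3 by 0.04 (SE 0.03, adjusted p = 0.853). Here 16 of 42 members lay above 0, with a median of -0.01.

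Averaged over genotypes, the diet gave the most calls among all genes, 67 of 19928 (0.336%), and 0 of 42 members were among them. At an unadjusted p below 0.05 stood 10 members, all lower on the high-fat diet, beside 2208 of all genes, and limma-voom had 10 and called 0. They included both GABA-B genes (Gabbr1, Gabbr2), Gria1, the kainate genes Grik1 and Grik3, the NMDA genes Grin2c and Grin3a, and the mGlu genes Grm3 and Grm4. No GABA-A gene was among the 10. In all, 34 of 42 members lay below 0 with a median of -0.02, and 29 of 42 when libraries were scaled by total reads. Over all genes 49.4% lay above 0, and 54.4% with that scaling. The averaged comparison shares its libraries with those within each genotype and does not add to them.

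Grin2c had the smallest p of any member in this comparison. With the high-fat diet it had 667 to 862 normalized counts in wild type (median 730.0) and 658 to 831 in knockout (720.5), against 665 to 852 (811) and 774 to 884 (819) on the control diet. Its log2 fold change for diet was -0.12 (SE 0.04), with an adjusted p of 0.124 in limma. Grik1 had 586 to 730.4 (median 676) and 576 to 788 (688) on the high-fat diet, against 660 to 841 (720.4) and 636 to 789 (761) on the control diet, in wild type and knockout. It differed by -0.14 (SE 0.04, adjusted p = 0.148 in limma), or by -0.09 with age as a covariate. All 4 ranges of each gene overlapped. Grin2a (0.04, SE 0.03, adjusted p = 0.709) and Gabra3 (0.02, SE 0.02, adjusted p = 0.765) had the smallest p of the members above 0.

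Markers of cell types and regions were read in the same comparison. Of 5 blood markers, 4 were called higher on the high-fat diet (Hbb-bs, Hba-a2, Hba-a1 and Hbb-bt, log2 fold changes of 0.59 to 0.62), and the blood sum was 9038 to 20283 normalized counts on the control diet against 14621 to 39562. All 7 meningeal markers lay above 0 (median 0.42, 0 called). Among 10 astrocyte markers 8 lay below 0 (median -0.04, 0 called), and among 11 neuronal markers 8 did (median -0.01, 0 called). Of 9 microglial markers 1 was called, Ctss, higher by 0.14. Of 17 hypothalamic markers 3 were called, the neuropeptide genes Cartpt and Avp higher by 0.32 and 0.34 and Hcrt lower (-0.36). The part of tissue make-up in the receptor values was not tested.

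**Figure D4:**
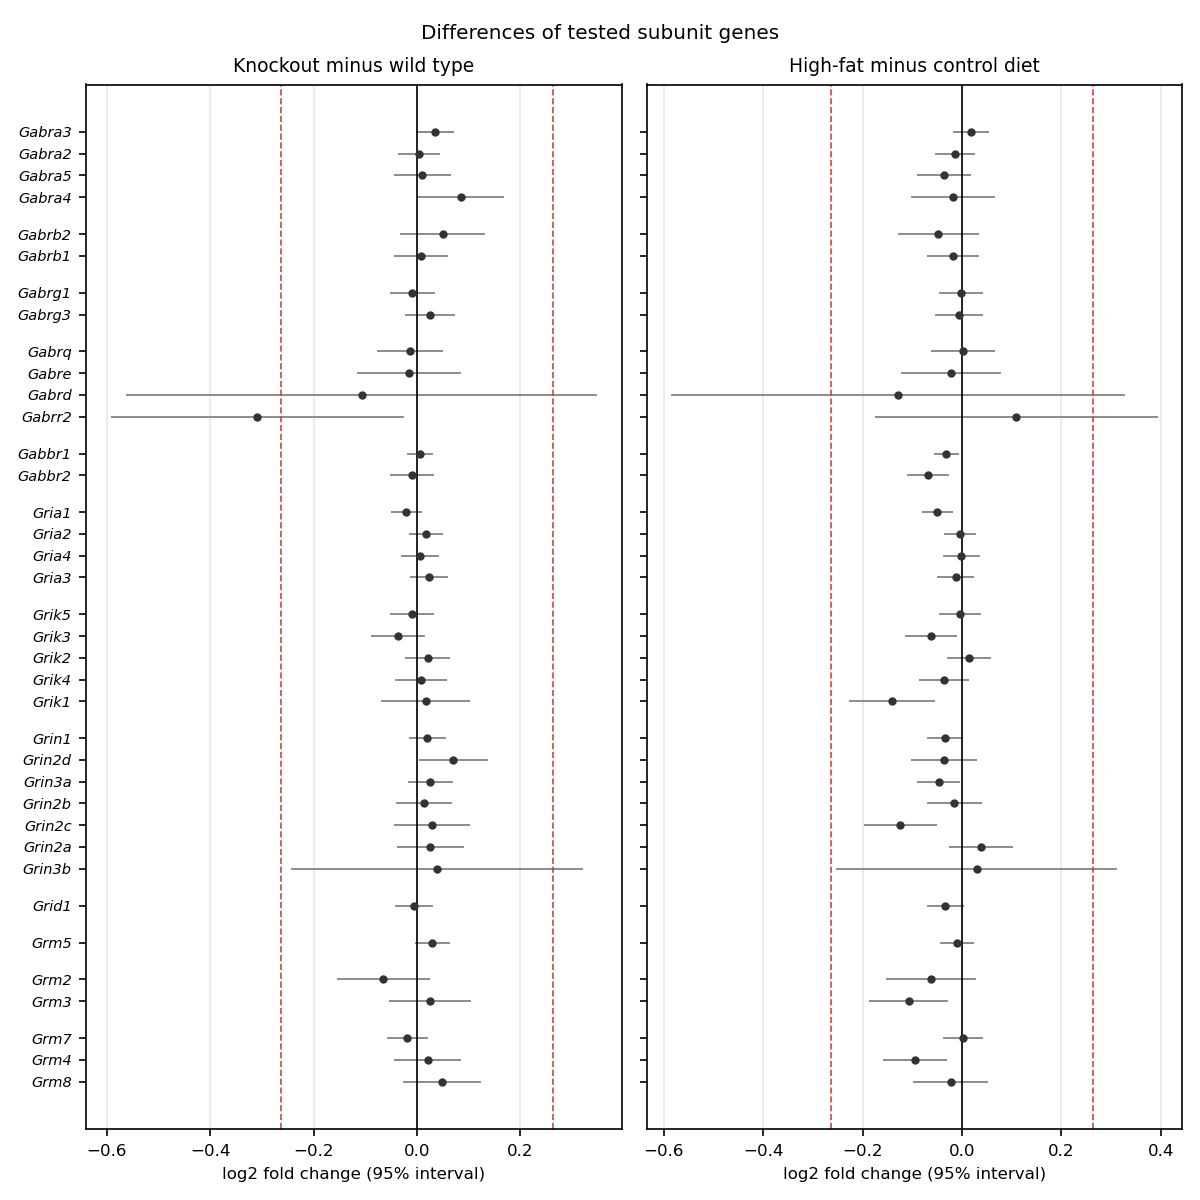
Log2 fold changes of tested genes with 95% intervals, for genotype averaged over diets (left) and diet averaged over genotypes (right); dashed lines mark a 1.2-fold change. Intervals of Gabrd, Gabrr2 and Grin3b reach past the dashed lines and those of the other genes shown do not.

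Whether the diet acted differently in the knockout was addressed by the interaction of genotype and diet. Neither members nor other genes were called (0 of 42 and 0 of 19928, 0%), with 2 members and 676 genes at an unadjusted p below 0.05. In limma-voom 0 members and 0 genes were called. Gabra3, whose log2 fold change with diet was 0.07 in knockout and -0.03 in wild type, had an interaction of 0.10 (SE 0.04). For Gabbr2 it was -0.05 (SE 0.04) and for Grm2 -0.09 (SE 0.09). Each had an adjusted p of 0.999 in limma.

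**Figure D5:**
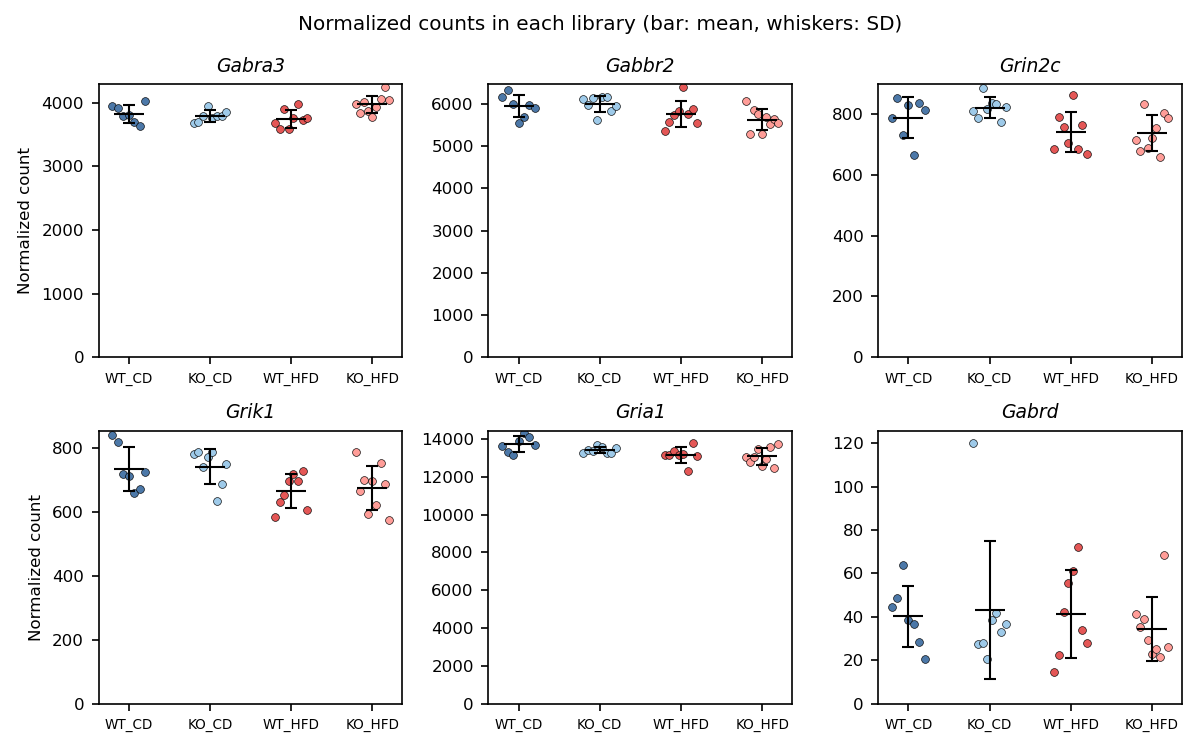
Each point is the normalized count of 1 library for 6 genes in the 4 groups, with the group mean (bar) and SD (whiskers) on axes that start at 0. Gabra3, Gabbr2, Grin2c, Grik1 and Gria1 were among the members of smallest p in a comparison. They differ within overlapping ranges, and none was called. Gabrd shows the single KO_CD library at 120.1.

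The depth allowed narrow limits on most members. For genotype averaged over diets, the 95% interval of 37 of 42 members stayed within 1.1-fold and that of 39 within 1.2-fold, and for diet these were 34 and 39. The exceptions at 1.2-fold were the scarce genes Gabrr2, Gabrd and Grin3b. Within a single diet or genotype 38 or 39 of 42 intervals stayed within 1.2-fold, Grik1 being a further exception for diet in wild type. For the interaction 37 of 42 did, with Gabre and Grm2 as further exceptions. Intervals are per gene, without adjustment for the number of genes. Within mice of a single age, 0 members were called for genotype on the control diet (149 days) and for genotype on the high-fat diet or diet in knockout (150 days). For diet in wild type no such test was run, since at each age 1 of the diets had a single mouse.

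Genes that make, move or anchor at these receptors were examined as 7 lists with 82 genes, all of which were tested. For genotype averaged over diets 0 of 82 were called, beside 0.00502% of all genes. For diet averaged over genotypes 2 of 82 were, beside 0.336% of all genes. Abat, which breaks down GABA, was lower on the high-fat diet by -0.07 on the log2 scale (SE 0.02, adjusted p = 0.0381 in limma). Slc38a2, a transporter of glutamine and other neutral amino acids, rose by 0.26 (SE 0.06, adjusted p = 0.0305). Both calls were lost with age as a covariate (adjusted p = 0.277 and 0.353). Abat was also lost with scaling by total reads (0.0564), and Slc38a2 with no filter on low values (0.063).

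Of 9 genes for GABA synthesis, packaging and uptake, 1 was called lower for diet and 0 higher, with a median of -0.02. The uptake gene Slc6a13 had the smallest p above 0 (0.65, SE 0.44, adjusted p = 0.616 in limma) and is also a meningeal marker. For genotype, Gad2, which makes GABA, differed by 0.06 (SE 0.03) and Abat by -0.03 (SE 0.02). Of 13 genes for glutamate synthesis, packaging and uptake, 1 was called higher for diet and 0 lower (median -0.01). The astrocyte transporter gene Slc1a2 differed by -0.03 (SE 0.02). For genotype, the vesicular transporter gene Slc17a6 differed by 0.03 (SE 0.02) and Slc1a4 by -0.04 (SE 0.02).

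The chloride transporters Slc12a2 (NKCC1), which loads neurons with chloride, and Slc12a5 (KCC2), which extrudes it, set the direction of GABA-A currents. For diet they differed by 0.06 (SE 0.02, adjusted p = 0.279 in limma) and -0.04 (SE 0.02, adjusted p = 0.356), with 0 of 2 called. For genotype both lay above 0, Slc12a2 at 0.04 (SE 0.02). Among 17 inhibitory scaffold and partner genes 0 were called for either factor (medians -0.01 for diet, 0.00 for genotype). Kctd12, a GABA-B partner, differed by 0.06 (SE 0.02) and Iqsec3 by -0.07 (SE 0.02) for diet, and Trak2 by 0.04 (SE 0.02) and Kctd12b by -0.06 (SE 0.04) for genotype.

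Of 16 auxiliary subunits of glutamate channels 0 were called, but 15 lay below 0 for diet (median -0.04). Over all genes 49.4% lay above 0. An unadjusted p below 0.05 in limma was reached by 5 of the 16, beside 11.1% of all genes, Cacng5 having the smallest (-0.06, SE 0.03). The 1 above 0 was Frrs1l (0.00, SE 0.02). For genotype Cacng3 differed by 0.11 (SE 0.04) and Cacng8 by -0.05 (SE 0.03). Among 22 excitatory scaffold genes 0 were called and 16 lay below 0 for diet (median -0.04). At an unadjusted p below 0.05 in limma stood 9, beside the same 11.1% of all genes. Dlg3 (SAP102) had the smallest p (-0.06, SE 0.02, adjusted p = 0.113 in limma), and Nlgn3 differed by 0.02 (SE 0.03). For genotype Dlg2 differed by 0.04 (SE 0.02) and Homer3 by -0.09 (SE 0.07). The 3 genes of the RNA editing list had 0 calls. For diet Adar differed by -0.04 (SE 0.02) and Adarb2 by 0.02 (SE 0.03). For genotype Adarb1, which edits Gria2, differed by 0.04 (SE 0.03) and Adar by 0.00 (SE 0.02).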

How the data were processed

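Hypothalamic RNA of 32 mice was read as stranded pairs on an Illumina sequencer, per the labels' protocols. Tools listed in the submitters' processing notes are STAR 2.7.6a, DESeq2 1.28.1, cutadapt 2.10 and Trim Galore 0.6.2, with the build GRCm38. Neither the counting program nor its strand setting is given in the sources. The authors deposited log2 normalized counts (reads divided by a size factor, a 0 listed as log2 of 0.1). Of the values above that floor, 100.0% came back as whole reads within 1e-06 reads, which gave the depths in the report. GENCODE vM21 supplied symbols for 55141 of 55401 rows and exon lengths.

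The test was limma 3.58.1 (R 4.3.3, intensity trend, robust) on log2(normalized count + 1). It covered 19928 genes with at least 10 normalized counts in at least 7 libraries, with all 4 groups in 1 fit, no covariate, and two-sided p-values adjusted by Benjamini-Hochberg over all genes at 0.05. A fold change on that scale understates the change of low genes. The script was tested on simulated data. Some members are not reported here. Each of the others is named at least once; fold changes are given for those among the 2 higher and 2 lower members of smallest p per comparison, and values by group for those among the leading gene of each family and the 5 most variable. Members and lists were chosen with earlier results of these data known. Alternatives were other pseudocounts, no filter, scaling by total reads, limma-voom on the recovered reads, age, replicate number or running library number as a term, a single age, and leaving out KO_CD replicate 1, the last chosen after seeing the data.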

Additional observations from a re-analysis of the deposited data

Results flagged for a closer look

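The search covered 22 members: those named for a fold change, those leading a family, the most variable ones and Gabrd. Not all of them have values by group in the text. Their 88 sets of 7 to 9 libraries were searched for a single library set apart by Dixon's criterion, and 4 were found. Chance alone sets apart about 1 in 20. All values here are normalized counts. Gabrd stood out at 120.1 in KO_CD replicate 1 (next 41.9) and at 68.6 in KO_HFD replicate 8 (next 41.2). Gabbr1 was lowest in KO_HFD replicate 2 at 19590 (next 20520). Gria1 was lowest in WT_HFD replicate 6 at 12290 (next 13120).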

How the results depend on the processing

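Under each alternative run, 0 members were called in every comparison, and the smallest adjusted p of any member over all of them was 0.123. All 237 recomputed fold changes of the 13 members named for a comparison kept their direction and their side of the threshold. Counts of called genes over the whole table moved more. With no filter on low values 2 genes were called for genotype on the control diet and 43 for diet averaged over genotypes. With age as a covariate 1 was called for diet in wild type and 12 for diet averaged over genotypes. For diet in knockout 4 were called with scaling by total reads and 2 within mice of 150 days. Replicate numbers did not mark pairs: same-numbered libraries of different groups had a median correlation of 0.01 over 45 pairs, and 3 of 32 libraries correlated best with their own number. With the replicate block, 3 genes were called for diet in wild type, 45 for diet averaged over genotypes and 0 members anywhere, and Abat lost its call (adjusted p = 0.0561). The causes of these shifts were not tested. Without KO_CD replicate 1, which held the most Gabrd, 73 genes were called for diet averaged over genotypes. Read depth limits Gabrr2, Grin3b and the 5 untested members, while Gabrd varied between libraries by more than counting gives.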
